A study of Mus musculus with 3 samples.

Results

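The homeobox, PAX, POU and ZIC transcription factor genes that mark regions of the nervous system were described in primary mouse astrocyte cultures. They were taken as every gene whose symbol is made of a family stem and a number, the families being Hox, Lhx, Nkx, Dlx, Emx, Otx, Pax, sine oculis (Six3 and relatives), Irx, Pou, Zic, Meis, Msx and Pbx. Of 19471 genes in the table, 61 matched, all of them protein-coding, and 34 of these had a mean normalized read count of 10 or more. The cultures were a single group of wild-type (WT) cells labelled as cortical astrocytes, taken from pups at postnatal day 1 and grown for 7 days before RNA was collected. The 3 libraries are each named for a different pup and have the same labels. There was no treated or mutant group, and animal, culture and library cannot be told apart. The sample names carry P0 where the other labels give P1. Polyadenylated RNA was sequenced, with the series titled after the histone variant H2BE.

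These genes encode transcription factors that bind DNA through a homeodomain, a paired domain, a POU domain or zinc fingers. In the embryo they are switched on in overlapping territories along the head-to-tail and back-to-belly axes, and their combination identifies where in the neural tube a progenitor lies. Lhx2, Emx2 and Pax6 are selector genes of the dorsal telencephalon, or pallium, from which the cortex forms. Dlx1, Dlx2 and Nkx2-1 mark the ventral telencephalon, or subpallium, the source of cortical interneurons, while Hox genes are expressed in the hindbrain and spinal cord. Astrocytes are known to keep part of the regional code of the progenitors they come from.

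Detected members often had relatives at a lower level, some of them near-silent and others detected as well. Promoters of 3 pairs are printed because their genes belong to one family or share one locus and yet differed in level here: Nkx6-2 and Nkx6-1, Emx2 and Emx1, and the neighbours Zic1 and Zic4, on opposite strands. Each is the 300 bases from 250 before to 50 after the start of the gene in RefSeq on GRCm38.p6 (mm10), written 5′ to 3′ on the gene's strand, with every CpG dinucleotide in capitals. They lie at chr7:139582748-139583047 on the minus strand for Nkx6-2, chr5:101664662-101664961 on the minus strand for Nkx6-1, chr19:59458440-59458739 on the plus strand for Emx2, chr6:85187681-85187980 on the plus strand for Emx1, chr9:91365719-91366018 on the minus strand for Zic1 and chr9:91368722-91369021 on the plus strand for Zic4.
Nkx6-2: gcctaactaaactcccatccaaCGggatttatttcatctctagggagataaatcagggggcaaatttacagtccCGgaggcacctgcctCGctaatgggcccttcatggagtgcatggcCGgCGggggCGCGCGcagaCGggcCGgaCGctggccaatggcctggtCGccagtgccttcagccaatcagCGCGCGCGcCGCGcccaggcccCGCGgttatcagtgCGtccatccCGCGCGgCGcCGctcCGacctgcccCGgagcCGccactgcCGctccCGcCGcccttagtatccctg
Nkx6-1: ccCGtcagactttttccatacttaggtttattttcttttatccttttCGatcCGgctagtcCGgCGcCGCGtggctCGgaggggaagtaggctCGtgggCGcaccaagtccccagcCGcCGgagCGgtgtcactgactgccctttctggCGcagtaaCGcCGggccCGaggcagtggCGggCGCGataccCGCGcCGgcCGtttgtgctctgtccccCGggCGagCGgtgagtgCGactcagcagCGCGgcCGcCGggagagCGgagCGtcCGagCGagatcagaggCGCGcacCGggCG
Emx2: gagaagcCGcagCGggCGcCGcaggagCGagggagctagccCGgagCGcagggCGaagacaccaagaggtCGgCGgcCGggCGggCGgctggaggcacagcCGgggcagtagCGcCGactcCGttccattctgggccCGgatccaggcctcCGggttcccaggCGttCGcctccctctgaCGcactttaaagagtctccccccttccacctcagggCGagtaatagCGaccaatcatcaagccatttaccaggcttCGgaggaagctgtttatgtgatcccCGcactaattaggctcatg
Emx1: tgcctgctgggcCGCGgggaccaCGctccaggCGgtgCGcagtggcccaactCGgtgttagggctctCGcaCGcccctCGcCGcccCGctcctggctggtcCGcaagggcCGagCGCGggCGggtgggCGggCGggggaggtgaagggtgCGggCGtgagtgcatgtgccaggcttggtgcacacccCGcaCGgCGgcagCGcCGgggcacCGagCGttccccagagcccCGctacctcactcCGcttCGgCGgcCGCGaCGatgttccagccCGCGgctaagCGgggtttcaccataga
Zic1: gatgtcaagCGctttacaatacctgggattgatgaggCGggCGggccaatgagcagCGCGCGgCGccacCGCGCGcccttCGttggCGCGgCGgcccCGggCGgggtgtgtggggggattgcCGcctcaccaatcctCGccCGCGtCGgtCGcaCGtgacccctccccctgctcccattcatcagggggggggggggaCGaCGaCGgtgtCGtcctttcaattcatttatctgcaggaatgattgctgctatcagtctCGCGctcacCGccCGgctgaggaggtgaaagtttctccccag
Zic4: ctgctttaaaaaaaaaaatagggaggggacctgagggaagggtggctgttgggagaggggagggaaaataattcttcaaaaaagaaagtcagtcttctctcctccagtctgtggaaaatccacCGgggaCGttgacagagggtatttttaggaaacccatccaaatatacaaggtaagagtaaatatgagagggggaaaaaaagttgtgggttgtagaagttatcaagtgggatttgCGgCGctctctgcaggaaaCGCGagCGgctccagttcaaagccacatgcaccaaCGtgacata

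The Nkx6-2 window held 32 CpG and the Nkx6-1 window 40, although Nkx6-2 had a mean normalized count of 580 and Nkx6-1 had no read in any library. Emx2 held 26 CpG at a mean of 452.5, and Emx1 held 37 CpG at a mean of 29.2. Zic1 held 31 CpG at a mean of 120 and Zic4 8 CpG at a mean of 58.2. A CpG-rich promoter was thus present on both the higher and the lower gene of the NKX6 and EMX pairs.

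Over the members matched to a RefSeq window, 44 of 61, the median was 19 CpG in 300 bases, and 8 CpG over 27025 genes, taking for each gene its window with most CpG. The median was 19 CpG for the 29 matched members with a mean of 10 or more and also 19 CpG for the 15 under 10. The homeodomain core TAATTA was found in 3 of the 44 member windows (6.82%), against 5.20% over all genes with 1 window each. CCAAT was found in 19 of the 44 (43.2%), against 37.4%. TATAAA was found in 1 of the 44 member windows (2.27%) and in 13.7% over all genes. This depended on taking the window with most CpG. With every window of each gene kept, TATAAA was in 4 of 56 member windows (7.14%) and in 13.6% of all windows. Both strands were searched and matches of different motifs may overlap; a match describes letters and does not show a bound site. Of the 6 windows printed, that of Emx2 held TAATTA and CCAAT, while Nkx6-2 and Zic1 held CCAAT.

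**Figure D1:**
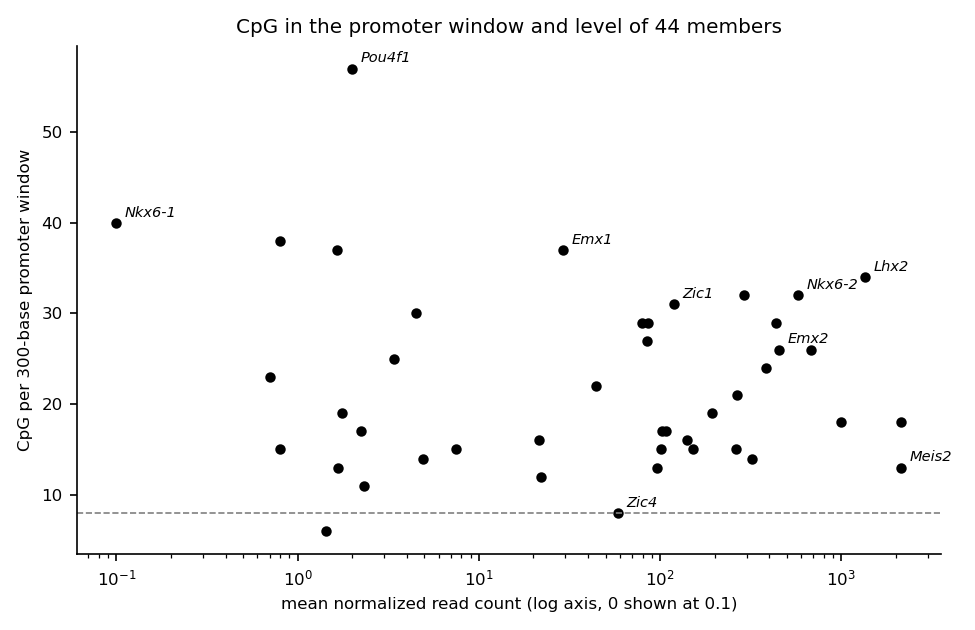
Number of CpG dinucleotides in the 300-base promoter window against the mean normalized read count over 3 libraries (log axis) for 44 of the members matched to RefSeq. Each point is 1 gene, 9 are named, and the dashed line marks the median of 8 CpG over all genes; points with many CpG occur at low and at high counts, as with Nkx6-1 at 40 and Nkx6-2 at 32.

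The libraries held 14380993, 25128038 and 9858626 reads in genes for replicates 1, 2 and 3, a 2.55-fold range. The values are read counts normalized between libraries by the authors and not divided by gene length. 1 read was worth 0.813, 0.472 and 1.20 normalized counts in replicates 1, 2 and 3. A library without a read for a gene allows a level of up to 2.44, 1.42 and 3.59 normalized counts in these replicates, the value of 3 reads, for counting error only. Replicate 1 had 3000 normalized counts of Xist and 0.813 over 4 Y-linked genes summed, whereas replicates 2 and 3 had 0.472 and 4.78 of Xist and 1840 and 2003 over the Y-linked genes, so the pups differed in sex. All 10 astrocyte markers listed, with Gfap the highest, passed a mean of 10 and summed to between 97910 and 118791 per library, those of microglia to between 13263 and 20112 and those of the oligodendrocyte lineage to between 6531 and 9074. In these bulk samples, fewer cells of a type and less RNA per cell cannot be told apart.

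Of the 61 members, 34 (55.7%) had a mean of 10 or more, against 71.6% of all genes in the table and 84.3% of its protein-coding genes. A mean of 100 or more was reached by 25 members (41.0%, against 54.3% of all genes) and a mean of 1000 or more by 4 members (6.56%, against 15.2%). Tested against a level of 10 over the 3 libraries, 34 of 60 members with a read lay above it, where 68.3% of all 19444 genes tested did, and 22 lay below it, where 24.6% of all genes did (limma, adjusted p under 0.05). Among the 4 not called either way were Pou3f1 at a mean of 7.87, Dlx5 at 7.85 and Nkx2-3 at 7.46. The lowest member above 10 was Six4, at 21.3. The 27 members under 10 together gave 331 of the 65097 member reads. In CPM, where every library has the same total and values are lower, 22 members reached a mean of 10. All members together took 0.1305%, 0.1279% and 0.1439% of all reads in replicates 1, 2 and 3.

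**Figure D2:**
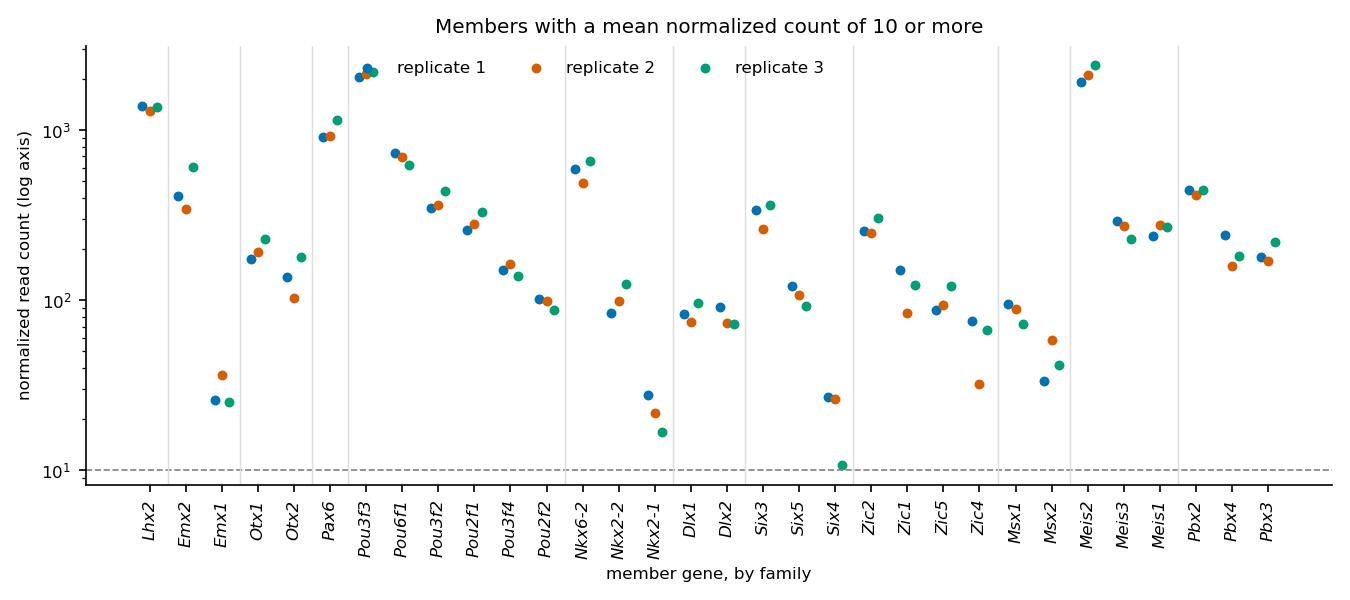
Normalized read count (log axis) of 32 members with a mean of 10 or more, grouped by family and ordered by mean within it; each point is 1 library and the dashed line is 10. Meis2, Pou3f3 and Lhx2 lie above 1000 in every library, while Six4 reaches 10.8 in replicate 3.

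The LIM-homeobox gene Lhx2, a cortical selector that also restrains the switch from neurons to astrocytes, was the highest member per kilobase of exon. The gene (ENSMUSG00000000247) spans 38339281 to 38369733 of chromosome 2, plus strand, in mm10. Its normalized counts were 1388, 1297 and 1376 in replicates 1, 2 and 3, and per kilobase it reached 308 ± 11.3 (SD, n = 3), at the 89.6 percentile of all genes. The 3 libraries thus lay close together. Levels of different genes were compared per kilobase within each library, as log2 differences from Lhx2 tested in limma over 19344 genes. Of the 59 other members tested, 57 lay below Lhx2 and 0 above it (adjusted p under 0.05), where 87.8% of all genes lay below it and 8.94% above. As Lhx2 had the highest mean per kilobase of exon of the members, these counts follow from that and only describe the order. At an unadjusted p under 0.05 the number above was also 0, since every member's difference was negative. All these differences share the 3 values of Lhx2 and are not independent of one another.

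The 2 members that could not be told apart from Lhx2 were Nkx6-2 and Pou3f3. Nkx6-2 differed by -0.03 ± 0.09 on the log2 scale per kilobase (SE; limma, adjusted p = 0.757) and Pou3f3 by -0.10 ± 0.07 (SE; limma, adjusted p = 0.194). Meis2 lay below Lhx2 at -0.80 ± 0.09 (adjusted p = 5.63e-05) and Emx2 at -1.07 ± 0.14 (adjusted p = 0.00015), both with SE from limma. These calls depend on the length used. With the longest transcript as the length, Nkx6-2 at -0.66 and Pou3f3 at -0.73 on the log2 scale were called below Lhx2. Without any division by length, Meis2 lay above Lhx2 by 0.66 and Pou3f3 by 0.65.

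**Figure D3:**
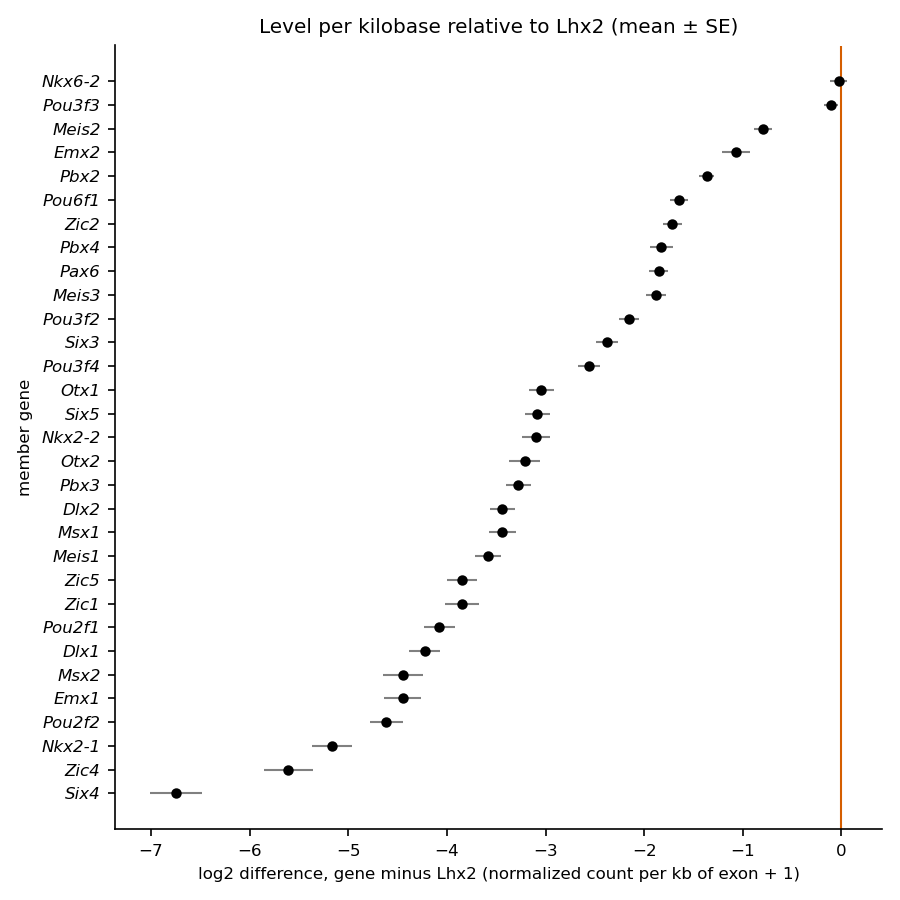
Log2 difference from Lhx2 in normalized count per kilobase of exon plus 1 (horizontal axis) for 31 other members with a mean of 10 or more; points are means over 3 libraries and bars are limma standard errors. Nkx6-2 and Pou3f3 touch or lie next to the line at 0, and Six4 is lowest at -6.75.

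Among the pallial genes, Pax6, the paired-box factor of radial glia and their neurogenic divisions, had normalized counts of 908.5, 928.3 and 1143 in replicates 1, 2 and 3. Replicate 3 was the highest, and the reads varied over the libraries beyond counting noise (chi-square test on reads, adjusted p = 2.04e-07). Emx2, which sets the size of the caudal and medial cortex, had 408.3, 342.9 and 606.3 normalized counts, so that replicate 3 was 1.77-fold above replicate 2. The antisense transcript Emx2os shares 264 bases of exon (8.8% of the Emx2 exons) with Emx2 on the opposite strand. Emx2os had 58.6, 60.9 and 86.1 in the same libraries, also highest in replicate 3. Its variation was not called beyond counting noise (chi-square test on reads, adjusted p = 0.0531). The library kit was stranded but the strand setting of the counting is not given in the sources used here, so reads of such overlapping pairs may be shared. The paralogue Emx1, a marker of cortical projection neurons and their progenitors, had only 26.0, 36.3 and 25.1. Per kilobase, Emx2 exceeded Emx1 by 3.41, 2.71 and 4.02 on the log2 scale in replicates 1, 2 and 3, a mean of 3.38 ± 0.66 (SD) or 10.4-fold. In CPM, where the pseudocount of 1 weighs more, the difference was 2.66.

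Such within-family differences were taken for 9 pairs, 7 of which are given, and with 3 libraries an exact two-sided sign-flip test cannot go below p = 0.25. The forebrain genes Otx1 and Otx2, homologues of fly orthodenticle, did not differ beyond their spread. Otx1 had 174.9, 192.9 and 229.6 normalized counts and Otx2 136.6, 103.3 and 180.6 in replicates 1, 2 and 3. Per kilobase, Otx1 minus Otx2 was 0.17 ± 0.31 on the log2 scale, close to 0 in replicates 1 and 3 and 0.52 in replicate 2. Lhx2 exceeded Lhx6, a gene of interneurons from the medial ganglionic eminence, by 7.75 ± 0.29 per kilobase, or by 4.71 in CPM, where Lhx6 rested on 5, 3 and 1 reads. Lhx9, a relative of Lhx2 expressed in the medial pallium and diencephalon, had a mean of 1.44 normalized counts, and Lhx4, a motor neuron and pituitary gene, 1.76.

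Of the 21 genes listed for the pallium, 19 were in the table and 15 lay above a level of 10 (limma), with 4 below it, shares near the 68.3% above and 24.6% below over all genes. The highest that are no members were Nr2f1, a nuclear receptor of the caudal cortex, at 1016 ± 81.6 normalized counts and the Hedgehog pathway repressor gene Gli3 at 849.5 ± 67.1 (SD, n = 3 each). The median of the 19 genes was 216 normalized counts, against 146 over all genes. Eomes, a factor of intermediate progenitors, had a mean of 1.77 and the proneural factor gene Neurog2 0.157. Of 9 markers of excitatory neurons, 5 were in the table and they summed to 37.4, 45.8 and 59.8 in replicates 1, 2 and 3.

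Among the subpallial members, Meis2 and Six3 were the highest per kilobase at 178 ± 20.2 and 59.0 ± 9.61, and the other 6 lay between 0.463 and 27.7. Dlx1 had 83.0, 74.1 and 95.7 normalized counts in replicates 1, 2 and 3 and Dlx2 had 91.1, 73.1 and 72.9; both are homeobox factors of interneuron progenitors, lie 18641 bp apart on chromosome 2 between their starts and showed no variation beyond counting noise (chi-square test on reads, adjusted p of 0.214 and 0.193). Per kilobase, Dlx1 minus Dlx2 was -0.79 ± 0.26 on the log2 scale (SD), and 0.090 without division by length. Dlx5 stood at a mean of 7.85, Dlx6 at 1.62 and Dlx4, a factor of the facial skeleton and placenta, at 3.75. The antisense transcript Dlx6os1, also called Evf2 and transcribed across the Dlx5 and Dlx6 locus, had 47.2, 25.9 and 39.5 in the same libraries. Per kilobase it averaged 7.25, with Dlx5 at 3.47 and Dlx6 at 0.684. Nkx2-1, which specifies the medial ganglionic eminence, had 27.7, 21.7 and 16.7 normalized counts from few reads.

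Six3, a homeobox gene of the anterior neural plate and later of the striatum, had 337.5, 262.7 and 363.5 normalized counts in replicates 1, 2 and 3, lowest in replicate 2 (chi-square test, adjusted p = 4.7e-06). Its divergent transcript Six3os1, which shares 106 bases of exon with Six3, stood at 620, 550.5 and 593. The neighbour Six2, a kidney progenitor gene 74666 bp away, had a mean of 1.65, so of these neighbours Six3 alone reached 10. Six5, a broadly expressed relative, had 122, 108 and 92.1, and Six4, a muscle factor gene, had 26.8, 26.4 and 10.8. Of muscle and mesoderm markers, 2 of 8 were in the table and 0 had a mean of 10 or more.

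Meis2, a TALE cofactor of the striatum that is also expressed in the cortex and elsewhere, held most of the summed level of the subpallial members. Summed per kilobase, the 6 pallial members reached 594 ± 65.1 and the 8 subpallial members 293 ± 24.4, a log2 ratio of 1.02, 0.98 and 1.06 in replicates 1, 2 and 3. Without Meis2, the subpallial sum was 115 ± 14 and the log2 ratio 2.38 ± 0.15. The pallial sum also rested largely on 1 gene, with Lhx2 giving 308 ± 11.3 of the 594. A ratio without Lhx2 was not computed, so the ratio without Meis2 relieves the subpallial side only. Without division by length the log2 ratio was 0.19. Of the 14 subpallial genes in the table (of 16 listed), 7 lay above a level of 10 and 4 below it (limma), where 68.3% and 24.6% of all genes did. The non-member Gsx1, a progenitor factor of the ganglionic eminences, stood at 13.5 ± 7.39 normalized counts. Of 8 interneuron markers listed, 7 were in the table and 4 had a mean of 10 or more, with the list summing to 534, 556 and 613 in replicates 1, 2 and 3. Most of that sum was Maf at 499 ± 38.8, and the enzyme genes for GABA synthesis were low, Gad1 at 24.4 ± 4.61 and Gad2 at 10.3 ± 1.75; their part in the Dlx values was not tested.

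**Figure D4:**
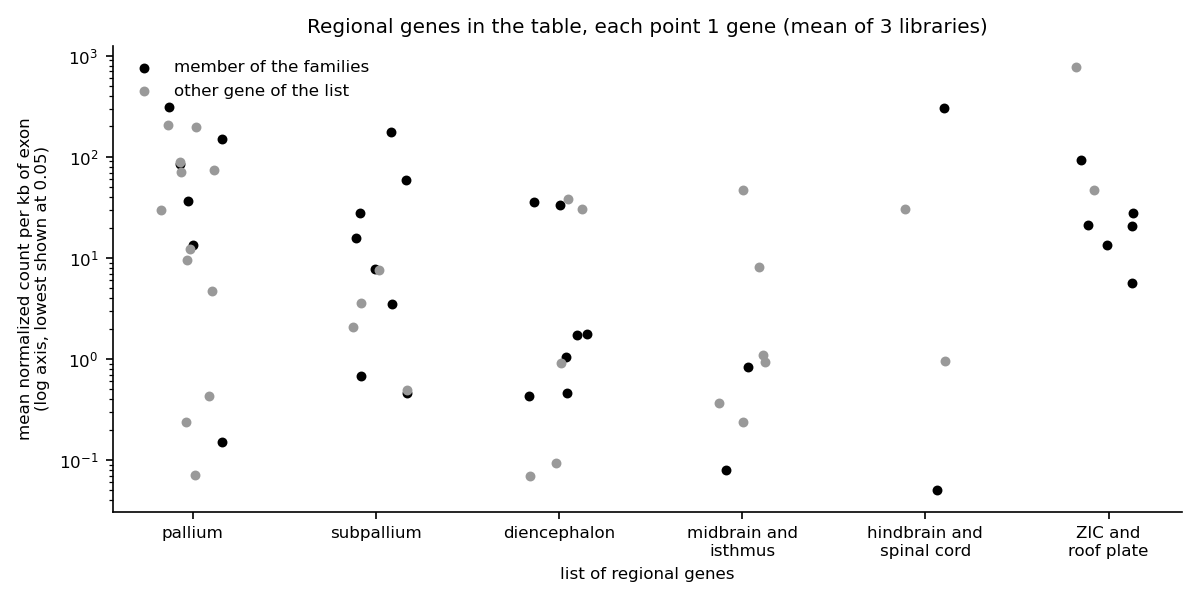
Mean normalized count per kilobase of exon over 3 libraries (log axis, values under 0.05 drawn at 0.05) of genes in the table from 6 lists of regional genes, with members in black and other genes in grey; each point is 1 gene and horizontal position within a list has no meaning. In the midbrain list Lmx1a at 46.7 and Gata2 at 8.22 stand apart from the others, and in the hindbrain list Nkx6-2 stands at 304 while Nkx6-1 is at 0.

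Members of more caudal territories were mostly near-silent. The 4 Iroquois genes in the table, of a family that patterns the diencephalon, midbrain and hindbrain, had means between 2.37 and 4.91 normalized counts. All lay below a level of 10 (limma), where 24.6% of all genes did. However, the calls of Irx1 (adjusted p = 0.104, limma) and Irx3 (adjusted p = 0.0756, limma) ended without replicate 2. Pax2 and Pax5, the paired-box genes of the midbrain-hindbrain boundary, had means of 4.51 and 0.699. Pax9 and Pax1 of the axial skeleton and Pax4 of the pancreas had 2.34, 1.67 and 1.76. Of the 6 Pax genes in the table, only Pax6 reached a mean of 10. The call of Pax2 below 10 ended without replicate 1 (adjusted p = 0.135, limma) or replicate 2 (adjusted p = 0.1305). The 2 Hox genes tested both lay below a level of 10 (limma), where 24.6% of all genes did. Their reads made up 0.0213% of the member reads in replicate 1, with a 95% exact binomial interval of 0.00581% to 0.0546%. The share was 0.0249% for replicate 2 (interval 0.0107% to 0.0490%) and 0.0282% for replicate 3 (interval 0.00768% to 0.0722%), where only counting error is covered. Of the members' level per kilobase they made up 0.0603%. No other Hox gene was in the table, so others could not be analysed.

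A few genes of caudal or diencephalic lists went against this. Nkx6-2 (ENSMUSG00000041309, chromosome 7 from 139579376 to 139582797, minus strand), a homeobox gene of ventral neural tube progenitors and later of myelinating oligodendrocytes, had 593, 491.5 and 656.5 normalized counts in replicates 1, 2 and 3. Per kilobase it reached 304 ± 43.6, second among the members, while its paralogue Nkx6-1, which acts in motor neuron progenitors and the pancreas, had 0 reads in all libraries. Nkx6-2 shares 246 bases (12.9% of its exons) with Inpp5a on the opposite strand, which had a mean of 726, so its level is uncertain. Replicate 2 was the lowest for Nkx6-2 (chi-square test, adjusted p = 8.22e-08), and the oligodendrocyte lineage markers summed to 7988, 9074 and 6531 in replicates 1, 2 and 3, highest in replicate 2. Most of that sum was Olig1 at 5984, 6876 and 4827, while Sox10 had 22.8, 13.7 and 8.37 and Mbp 95.2, 87.7 and 50.2, both highest in replicate 1. Nkx2-2, a gene of the ventral neural tube and of oligodendrocyte precursors, had 83.8, 99.5 and 124, lowest in replicate 1. The relatives Nkx2-3, Nkx2-4 and Nkx2-9 had means of 7.46, 0.797 and 0.797.

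Of 12 diencephalic genes in the table (of 18 listed), 4 lay above a level of 10 and 8 below it, and of 8 midbrain and isthmus genes (of 15 listed) 2 lay above and 6 below (limma), again beside 68.3% above and 24.6% below over all genes. Otx2 and Nkx2-2 were the diencephalic members above it. The highest non-members were the Wnt effector gene Tcf7l2 at 337.5 ± 77.9 normalized counts, the optic stalk gene Vax1 at 33.99 ± 7.96 and Gbx2 at 1.99 ± 2.04 for the diencephalon. For the midbrain they were Lmx1a at 159 ± 6.61, Gata2 at 44.4 ± 2.42 and En2 at 3.34 ± 0.881 (SD, n = 3 each). Of 6 hindbrain and spinal cord genes in the table (of 28 listed), 3 lay above a level of 10 and 2 below, with Nkx6-1 untested; the shares over all genes are the same 68.3% and 24.6%. Among those above it, Egr2, a factor of rhombomeres, Schwann cells and immune cells, averaged 105 ± 23.3. Atoh1, a factor of the rhombic lip, lay below it at 2.04 ± 1.11.

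Otx2 is also a factor of the choroid plexus, whose markers summed to 682, 1106 and 573 in replicates 1, 2 and 3. That sum was highest in replicate 2, through Ttr at 31.7, 557 and 13.2. Otx2 was lowest in replicate 2 at 103.3. The folate receptor gene Folr1 had 425, 334 and 386, also lowest in replicate 2. Sostdc1 had 159, 144 and 130, lowest in replicate 3. These were the other high choroid plexus markers, and 6 of 9 listed had a mean of 10 or more. The part of choroid plexus cells in the Otx2 level was not tested. Otx2 varied over the libraries beyond counting noise (chi-square test on reads, adjusted p = 2.07e-06) and did so with any 1 replicate left out.

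The POU genes were led by the brain factors of class III, which act in neural progenitors and glia. Pou3f3 (Brn1) had 2056, 2127 and 2186 normalized counts in replicates 1, 2 and 3, a spread within counting noise (chi-square test on reads, adjusted p = 0.289). Its divergent long non-coding neighbour Pantr1 was similarly even, at 311, 324 and 328. Pou3f2 (Brn2) had 350, 365 and 436.5 and lay 2.05 ± 0.13 below Pou3f3 on the log2 scale per kilobase. The X-linked Pou3f4 (Brn4), a gene of the striatum and inner ear, had 151, 163 and 139, while Pou3f1, a factor of myelinating Schwann cells, stood at 7.87. Pou6f1, a brain-enriched POU factor, had 733, 691.5 and 621 normalized counts, highest in replicate 1. Pou2f1 (Oct1), which is expressed in most cell types, had 257, 280 and 330 and shares 3007 bases (18.1% of its exons) with Cd247 on the opposite strand, a gene at a mean of 32.4. Pou2f2 (Oct2), known from B cells and neurons, had 102, 98.6 and 87.3. The tuft cell gene Pou2f3 had a mean of 4.02 and the sensory neuron gene Pou4f1 of 2.00.

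All 5 ZIC zinc finger genes, which act in the dorsal neural tube, the cortical hem and the meninges, had a mean of 10 or more. Zic2, a holoprosencephaly gene in humans, had 254, 250.01 and 305 normalized counts in replicates 1, 2 and 3 and, per kilobase, reached 93.6 ± 10.7. Zic5, next to Zic2 on chromosome 14 at 9758 bp between starts, had 87.8, 93.9 and 122, with no variation called beyond counting noise (chi-square test on reads, adjusted p = 0.0666). Zic1 had 151, 84.4 and 123 and Zic4 75.6, 32.1 and 67.0, so that both were lowest in replicate 2. These genes lie on opposite strands of chromosome 9 and overlap in the GENCODE annotation, with 60 bases of exon shared, so their counts are uncertain. The RefSeq start behind the printed Zic4 window lies downstream of the GENCODE start. Zic4 in replicate 1 was 2.36-fold above replicate 2. Zic1 exceeded Zic4 by 1.76 ± 0.18 per kilobase on the log2 scale, by 0.53 with the longest transcript as length, by 1.08 without division by length and by 0.91 in CPM.

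Genes of the dorsal midline and of the meninges were read beside the ZIC family. Of the 12 genes listed for ZIC factors and the roof plate, 9 were in the table and all 9 lay above a level of 10 (limma), which 68.3% of all genes did. The homeobox genes Msx1 and Msx2, targets of bone morphogenetic protein (BMP) signalling, had 95.2, 88.7 and 72.9 and 33.3, 58.0 and 41.9 normalized counts in replicates 1, 2 and 3. The ligand gene Bmp6 stood at 3042 ± 186 and the roof plate factor gene Lmx1a at 159 ± 6.61. Of 14 meningeal and fibroblast markers, 13 were in the table and 9 reached a mean of 10, summing to 6840, 6811 and 6529 in replicates 1, 2 and 3. The 3 highest did not move together: Islr had 3109, 2265 and 2698, lowest in replicate 2, whereas Ogn had 1457.5, 1893 and 1624 and Col1a2 993, 1176 and 1047.5, both highest in replicate 2. Of 6 Cajal-Retzius cell markers, 4 were in the table and summed to 288, 232 and 276. The 2 abundant ones differed in pattern: Trp73 had 180, 120 and 165, lowest in replicate 2, and Reln had 104, 111 and 108, with no variation called beyond counting noise (chi-square test on reads, adjusted p = 0.921). The part of either cell type in the ZIC levels was not tested.

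The TALE homeobox genes, whose products are cofactors that bind DNA together with Hox and other homeodomain proteins, were all detected. Meis2 had 1917, 2110 and 2400 normalized counts in replicates 1, 2 and 3, highest in replicate 3. Meis2 exceeded Meis1 by 2.79 ± 0.11 on the log2 scale per kilobase. Pbx2 was even at 444, 414 and 442 (chi-square test, adjusted p = 0.31), as was Meis1 at 239, 275.0 and 270.2 (adjusted p = 0.258). The hindbrain factor gene Meis3 had 294, 272 and 228, highest in replicate 1. Pbx3 had 180, 170 and 219 and Pbx4 243, 158 and 182, both lowest in replicate 2. Pbx2 shares 227 bases (6.2% of its exons) with Gpsm3 on the same strand, at a mean of 74.0. Of the 11 TALE genes listed, 11 lay above a level of 10 (limma), as did 68.3% of all genes, including the non-members Tgif1 at 431 ± 36.9, Pknox1 at 348 ± 15.6 and Pknox2 at 238 ± 10.4. Together the MEIS genes gave 16.9 ± 0.75% of the member reads (SD, n = 3), next to 0.0248 ± 0.00344% for the Hox genes.

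The members were then compared between the 3 cultures, which have the same labels. Of the 34 tested, 20 (58.8%) varied beyond counting noise, against 55.4% of 13941 genes (chi-square test of reads against library totals, adjusted p under 0.05). That share was near the background, and the median SD of log2 values was 0.19 for the detected members and 0.16 for all detected genes. The 5 largest SDs of log2 values were 0.71 for Six4, which rests on few reads and was not called, 0.66 for Zic4, 0.42 each for Zic1 and Emx2 and 0.40 for Otx2. Among genes of similar mean, 0.5 to 2 times their own, these lay at the 91.3 percentile for Six4, 97.6 for Zic4, 93.7 for Zic1, 98.4 for Emx2 and 93.3 for Otx2. Of the 20 members called, 13 were highest in replicate 3, 6 in replicate 1 and 1, Msx2, in replicate 2. Lowest were 10 in replicate 2, 8 in replicate 1 and 2 in replicate 3. Over the 7726 genes called, 36.5% were highest in replicate 3, 35.7% in replicate 1 and 27.8% in replicate 2. Lowest were 27.2% in replicate 2, 35.9% in replicate 1 and 36.9% in replicate 3.

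**Figure D5:**
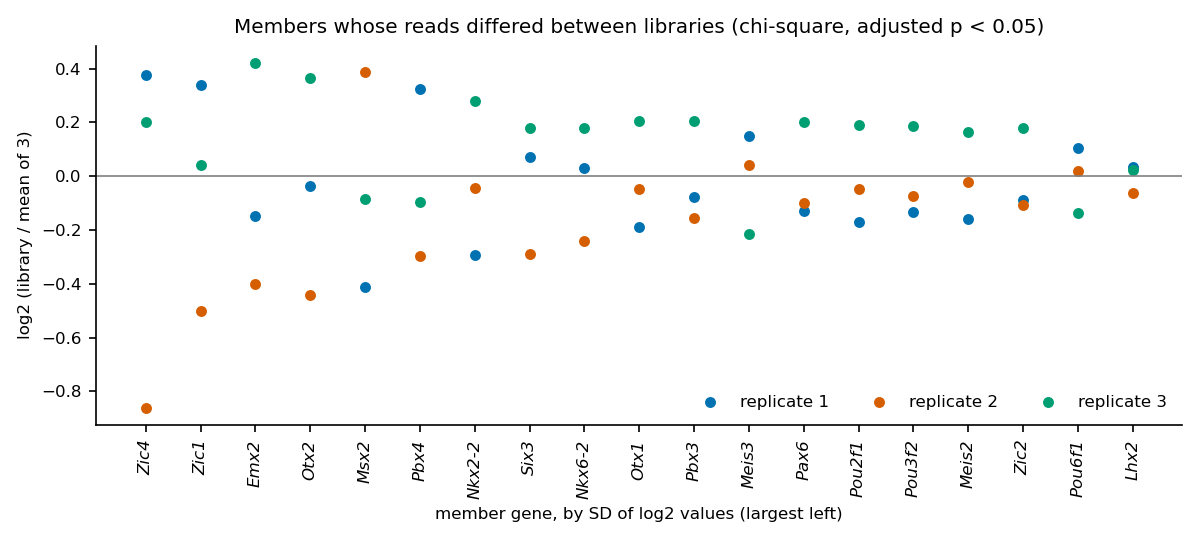
Log2 of the library's normalized count over the mean of the 3 libraries for 19 members whose reads differed between libraries (chi-square test, adjusted p under 0.05), ordered by the SD of log2 values; each point is 1 library. Replicate 2 lies lowest for Zic4, Zic1, Emx2 and Otx2, and replicate 3 highest for Emx2, Otx2 and Nkx2-2.

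With 1 replicate left out, 13, 14 and 11 members differed without replicate 1, 2 and 3, against 35.8%, 40.2% and 37.0% of all genes tested. The calls of Emx2, Meis2 and Otx2 held each time. Leaving out replicate 2 ended the calls of Zic1, Zic4, Six3, Nkx6-2, Zic2, Lhx2, Msx2 and Pbx3, while Six4 and Zic5 were then called. Leaving out replicate 1 ended those of Lhx2, Meis3, Msx2, Nkx2-2, Otx1, Pbx4, Pou2f1 and Pou6f1, and Six4 was called. Without replicate 3 the calls of Meis3, Nkx2-2, Otx1, Pax6, Pbx3, Pou2f1, Pou3f2, Pou6f1 and Zic2 ended. The call of Lhx2 (chi-square test on reads, adjusted p = 0.0353) also ended with the authors' size factors in place of library totals. Depth, pup sex, and the microglial marker sum, highest in replicate 1, differ between the same 3 libraries, and their part in these differences was not tested.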

How the data were processed

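RNA of 3 libraries was sequenced from polyadenylated transcripts with a stranded kit, per the labels' protocols. The authors deposited normalized counts per gene (a signal, not reads), made with DESeq2 on the build mm10, per the submitters' processing notes. Aligner, counter and strand setting are not named in the sources used here. Dividing by the value of 1 read gave whole reads for 100% of values (tolerance 0.05 reads), and thus each library's depth. With 1 group no contrast was fitted; the chi-square test on recovered reads called 7726 of 13941 genes, those with a mean of at least 10 and 30 reads in all.

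Limma 3.58.1 (R 4.3.3) was fitted with an intercept and a trended prior on log2(value + 1), against a level of 10 over 19444 genes, and on differences from Lhx2 per kilobase of exon over 19344 genes. P-values are two-sided with Benjamini-Hochberg adjustment over all genes tested, and log2 differences are understated for low genes. Exon lengths, coordinates and overlaps came from GENCODE on mm10, which held 99.5% of the gene IDs, and promoters from RefSeq. Python 3.11.15, pandas 2.3.3, numpy 2.4.6, SciPy 1.17.1 and matplotlib 3.10.9 were used, and scripts were tested on simulated data.

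Members with a mean of 10 or more are named with values, the others by family, and of each regional list the 3 highest non-members; some of these genes are not reported here or drawn in the figures, though they count in the totals. Members, lists and pairs were chosen with earlier results of these data known. Alternatives covered scaling, pseudocount, prior, length, thresholds and each replicate left out.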

Additional observations from a re-analysis of the deposited data

How the results depend on the processing

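The level of 10 is on the authors' scale: in CPM, 22 members reached a mean of 10, 20 lay above it and 34 below it. Without division by length, 3 members lay above Lhx2. With 1 replicate left out, 11 to 14 members differed between libraries, 32 to 34 lay above a level of 10 and 15 to 22 below it. Without replicate 2, the call of Nkx2-1 above 10 ended (adjusted p = 0.0605, limma), and without replicate 1 or 2 that of Six4 did (0.175 and 0.230). Below 10, the calls of Dlx4, Pax2 and Pou2f3 ended without replicate 1 (adjusted p from 0.0621 to 0.135, limma) and without replicate 2 (from 0.0757 to 0.1305), and those of Irx1, Irx3, Pax1 and Pax9 without replicate 2 (from 0.0566 to 0.104). The log2 ratio of pallial over subpallial members was 0.19 without division by length, and, in alternatives chosen after seeing the data, 0.75 with the longest transcript as length, 2.38 without Meis2 and 0.89 with every gene of both lists. No ratio without Lhx2, the highest pallial member per kilobase, was computed. The Hox share was 0.0603% of the members' level per kilobase. Otx1 minus Otx2 reversed to -0.48 with the longest transcript and ranged from -0.0098 to 0.26 over leave-outs, and Dlx1 minus Dlx2 reversed to 0.090 without division by length; the cause was not tested beyond the lengths themselves. In CPM, Emx2 minus Emx1 was 2.66, Lhx2 minus Lhx6 4.71, Zic1 minus Zic4 0.91 and Dlx1 minus Dlx2 -0.53. Over the alternatives for the 9 pairs, 32 values stayed within 1 SD of the main value, 19 moved and 3 reversed, and all 136 alternatives for the members' means stayed within 1 SD. An edgeR dispersion was planned and not run. No paired analysis was possible because there is 1 group. Depth limits the members under 10, which rest on 331 reads.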

Other observations

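Non-coding transcripts next to the members were listed separately, and 10 of 23 were in the table. Of these, 6 lay above a level of 10 normalized counts and 3 below it (limma), where 68.3% and 24.6% of all genes did. Six3os1 led at 588 ± 34.9 (SD, n = 3), followed by Pantr1 beside Pou3f3 at 321 ± 8.93 and Emx2os at 68.5 ± 15.3. Pax6os1, antisense to Pax6, had 25.2, 24.5 and 37.1 in replicates 1, 2 and 3, highest in replicate 3 as was Pax6. However, Pax6os1 showed no variation called beyond counting noise (chi-square test on reads, adjusted p = 0.214). Pantr2 stood at 35.8 ± 8.75. Nkx2-2os, antisense to Nkx2-2, had a mean of 8.36. Endothelial markers gave 5 genes in the table of 7 listed, summing to between 765 and 845 per library. Of that sum Kdr made 689.5 ± 59.6. Flt1 and Cdh5 had means of 90.6 and 11.9, and Pecam1 and Tek of 5.43 and 1.68.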
